A study of Mus musculus with 12 samples.

Results

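The difference between the diet change of p47phox null mice and that of wild type mice was examined gene by gene in all 12 fat pad arrays of the series. For each gene the change in null pools (high fat diet minus casein) was set against the change in wild type pools (high fat diet minus casein), and the interaction is the first minus the second. The 18195 genes measured were read as the mean of their probe sets. The 4 groups, each of 3 pools of abdominal fat pads from female mice, were p47phox null (P47KO) fed the high fat diet (HFD), p47phox null fed casein, C57BL/6 wild type fed the HFD and C57BL/6 wild type fed casein. Both diets began at postnatal day 28 and ran for 13 weeks, after which the pads were frozen. The labels give neither the number of animals in a pool, nor which abdominal depot was taken, nor an array date. Every value is a log2 value centred on the median of the 12 arrays for its probe set, so it is a difference between pools and not an expression level, and 1 unit is a 2-fold difference.

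The protein p47phox, encoded by Ncf1, is the cytosolic organiser of the phagocyte NADPH oxidase. On activation it moves to the membrane and brings the other cytosolic subunits to the catalytic subunit gp91phox, encoded by Cybb, which then makes superoxide. Fat that expands on a rich diet is known for larger adipocytes, more leptin, new vessels and matrix, and recruited macrophages that carry this oxidase. The gonadal fat of a female mouse lies against the ovary, oviduct and uterus, so small amounts of those organs can be taken with it.

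Ncf1 itself stood at -0.29, -0.21 and -0.19 in null HFD pools and at -0.19, -0.23 and -0.23 in null casein pools, against 0.37, 0.50 and 0.72 in wild type HFD pools and 0.07, 0.37 and 0.85 in wild type casein pools. All 6 null pools lay below all 6 wild type pools, which fits the labels. Where its probe sets lie relative to the disrupted sequence is not given. The labelled tissue could not be checked by the level of Adipoq or other adipocyte markers, because centring removed the levels. Markers of other organs set single pools apart. Skeletal muscle markers had a median of 3.58 in null HFD pool 1, 4.58 in wild type HFD pool 2 and 2.45 in wild type casein pool 1. In null casein pool 1 their median was 1.71. In wild type casein pool 3 liver genes had a median of 4.58, lymphocyte markers of 1.36 and adrenal genes of 1.37. In an alternative that left out 3 pools together, these were null HFD pool 1, wild type HFD pool 2 and wild type casein pool 3. Wild type casein pool 1 and null casein pool 1 stayed in. The part of other tissue in the results below was not tested beyond the values given without single pools, without these 3 or with tissue medians as covariates.

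In the whole table, 0 of 18195 genes passed the interaction test (limma, Benjamini-Hochberg threshold 0.05; percent called 0), and the smallest adjusted p was 0.789. At an unadjusted p under 0.05 there were 1113 genes, 6.12% of those tested, with 492 positive interactions (2.7%) and 621 negative ones (3.41%). A positive interaction means that the diet change was higher, or less negative, in null pools. The standard error of an interaction had a median of 0.16. Of the 342 genes with an interaction of at least 1 in size, 310 were positive and 32 negative. The diet changes also yielded 0 calls on their own, in null pools (smallest adjusted p = 0.163; 727 genes, 4%, at an unadjusted p under 0.05; 942 calls with array weights) and in wild type pools (smallest adjusted p = 0.0746; 1384 genes, 7.61%). All classes and lists below are therefore descriptions of size. Leaving out wild type casein pool 2 gave 10 interaction calls, and leaving out wild type casein pool 3 gave 1. Those genes are named further on.

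The spread of the diet change over all genes had an SD of 0.18 in null pools and 0.26 in wild type pools. Across genes, which are not independent replicates, the diet changes of the genotypes had a Pearson correlation of -0.11 and a Spearman correlation of -0.07. The null and wild type changes share no pool, and both rest on 3 pools a group. The HFD pools lay wholly above or below the casein pools for 1927 genes in null mice (10.6%) and 2172 in wild type mice (11.9%). Both held for 202 of the 18195 genes, of which 106 went the same way and 96 opposite ways. These counts were not tested against the overlap expected from the separate shares. With a further limit of 1 on the size of the change, 11 genes remained in null pools (0.0605%; 8 higher and 3 lower on the high fat diet) and 53 in wild type pools (0.291%; 19 higher and 34 lower).

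**Figure D1:**
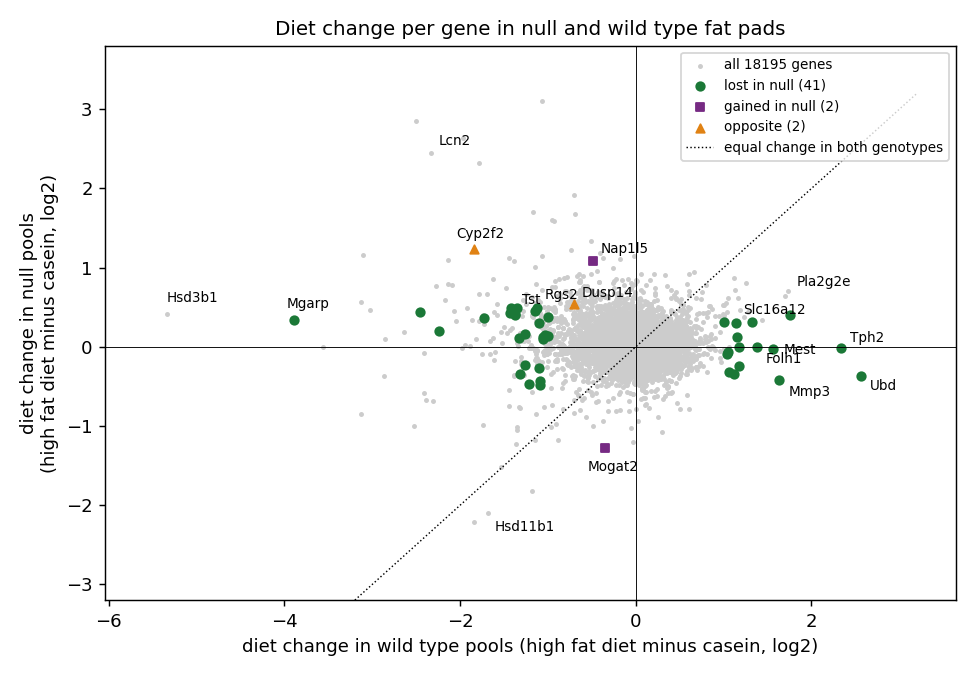
Diet change of each of 18195 genes in null pools (vertical axis, log2) against wild type pools (horizontal axis, log2), with the lost class (41 genes), the gained class (2) and the opposite class (2) marked. The marked genes of the lost class lie in 2 bands beyond 1 on either side of the horizontal axis and within 0.5 of 0 on the vertical one, while Hsd11b1 lies near the dotted line of equal change.

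Genes were sorted into 3 classes by size. A gene was put in the lost class when its wild type pools were separated by diet, its wild type change was at least 1 and its null change was under 0.5. The gained class exchanges the genotypes, and the opposite class needs separated pools in both genotypes and changes of at least 0.5 in opposite directions. The lost class held 41 genes (0.225% of all), the gained class 2 (0.011%) and the opposite class 2 (0.011%). Of the 53 wild type genes past the limit of 1, 41 were thus in the lost class, 7 had a null change of at least 0.5 in the same direction, and 5 had one of at least 0.5 in the opposite direction. Just inside the limit stood Gbp8 with a null change of 0.50 and just outside it Slc18a2 with 0.54. The limit on the wild type change was met closely by Dsc2 at -1.0. In the lost class the wild type change was positive for 16 genes and negative for 25, and the null change ran from -0.48 to 0.50. Of the 41 genes, 29 had a null change of opposite sign to the wild type one. The share of opposite signs over all genes was not counted. Only 5 of the 41 had null pools separated by diet, so the sign of a null change under 0.5 is not read as a reversal. Only 25 of the 41 had an interaction at an unadjusted p under 0.05 (limma). The largest unadjusted p was 0.474, for Ramp3, with an interaction of 0.74 ± 1.0. Membership of the class thus does not show that the diet change differed between the genotypes. The lost count was 163 without wild type casein pool 2, 84 without wild type HFD pool 1 or pool 2, and 66 without wild type casein pool 1.

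Of the 8 genes in the lost class with the smallest interaction p, 3 encode mitochondrial or cofactor enzymes, and all 3 were lower on the high fat diet in wild type pools. Tst, the mitochondrial rhodanese that transfers sulfur from thiosulfate, was at 0.36, 0.25 and 0.70 in null HFD pools and -0.28, 0.24 and 0.14 in null casein pools, against -1.41, -1.26 and -1.73 in wild type HFD pools and -0.14, -0.50 and 0.37 in wild type casein pools. The wild type HFD pools were the 3 lowest of the 12, and the null diets were separated the other way by a narrow gap. The interaction of Tst was 1.78 ± 0.32 (SE, n = 3 pools a group; 95% interval 1.07 to 2.48; limma adjusted p = 0.789), from a diet change of 0.40 in null and -1.37 in wild type pools. It was the smallest p of the table, and its range over the alternatives was 1.28 to 1.98 (adjusted p 0.0937 to 0.991). Pank1, the pantothenate kinase that starts coenzyme A synthesis, was at -0.32, 0.38 and 0.43 in null HFD pools and between -0.002 and 0.15 in null casein pools. In wild type pools Pank1 was at -1.15, -0.69 and -1.29 on the high fat diet and at 0.04, 0.60 and 0.22 on casein. The interaction of Pank1 was 1.44 ± 0.31 (95% interval 0.75 to 2.13), and that of its 4 probe sets 0.85 to 1.90. Fdx1, the ferredoxin that passes electrons to mitochondrial cytochromes P450 of steroid synthesis, was at 0.36, 0.75 and 0.75 in null HFD pools and 0.06, 0.29 and 0.26 in null casein pools. In wild type pools it was at -1.78, -1.92 and -2.05 on the high fat diet and at -0.06, -1.48 and -0.07 on casein. Its casein pool 2 thus stood near the HFD pools. The interaction of Fdx1 was 1.80 ± 0.44, and without that pool it was 2.27 and passed (adjusted p = 0.00639). With the tissue medians as covariates it was 0.91.

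Of these 8 genes, 2 act in signalling, and both were also lower on the high fat diet in wild type pools. Rgs2, which shortens signalling by Gq proteins, was at 0.27, 0.49 and 0.64 in null HFD pools and -0.08, 0.06 and 0.07 in null casein pools, against -0.92, -1.25 and -1.67 in wild type HFD pools and -0.09, -0.63 and 0.31 in wild type casein pools. The groups of each genotype did not overlap and lay in opposite orders. The interaction of Rgs2 was 1.60 ± 0.33 (95% interval 0.87 to 2.33), although its 4 probe sets ranged from 0.50 to 2.13. Ppm1e, a metal-dependent protein phosphatase, was at 0.14, 0.44 and 0.62 in null HFD pools and 0.06, 0.70 and -0.06 in null casein pools, against -1.55, -1.56 and -1.41 in wild type HFD pools and 0.31, -0.97 and -0.08 in wild type casein pools. Its interaction was 1.43 ± 0.42, and 0.58 with the tissue medians as covariates.

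The other 3 of these genes were higher on the high fat diet in wild type pools. Slc16a12, a member of the monocarboxylate transporter family that carries creatine, was at -0.09, 0.08 and -0.08 in null HFD pools and -0.26, -0.23 and -0.51 in null casein pools, against 0.98, 1.29 and 1.30 in wild type HFD pools and 0.24, 0.10 and -0.20 in wild type casein pools. The null diets were separated in the same direction as the wild type ones, but by a smaller step. The interaction of Slc16a12 was -0.84 ± 0.19 (95% interval -1.26 to -0.43), from diet changes of 0.30 in null and 1.14 in wild type pools. Its wild type diet change had the smallest adjusted p of that comparison, 0.0746, and passed without wild type HFD pool 1 (adjusted p = 0.043) or wild type casein pool 2 (adjusted p = 0.0409). Folh1, the glutamate carboxypeptidase, was at -0.05, -0.46 and -0.68 in null HFD pools and -0.38, -0.39 and -0.42 in null casein pools, against 1.12, 1.31 and 2.20 in wild type HFD pools and 0.05, 0.29 and 0.14 in wild type casein pools. The null diet change of Folh1 was -0.001, and the interaction was -1.38 ± 0.35 (95% interval -2.15 to -0.62). Ctcflos, a non-coding transcript opposite Ctcfl, was at 0.11, -0.16 and -0.71 in null HFD pools and 0.20, -0.14 and -0.12 in null casein pools. In wild type pools it was at 0.74, 0.93 and 1.52 on the high fat diet and at -0.33, 0.003 and -0.003 on casein, with an interaction of -1.41 ± 0.33.

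Slc16a12 and Pank1 are adjacent protein-coding genes on mouse chromosome 19 in the RefSeq table of GRCm38.p6, with 0 protein-coding genes between them, which was seen after their values. Their wild type diet changes ran in opposite directions, at 1.14 for Slc16a12 and -1.33 for Pank1. The nearest measured genes on either side were smaller in size. Ifit1, an interferon-induced gene, had an interaction of 0.76 ± 0.50, and Kif20b, a mitotic kinesin, had 0.06 ± 0.12. Further out, Ifit1bl2 had 0.08, Htr7 had -0.12 and Rpp30 had -0.18.

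**Figure D2:**
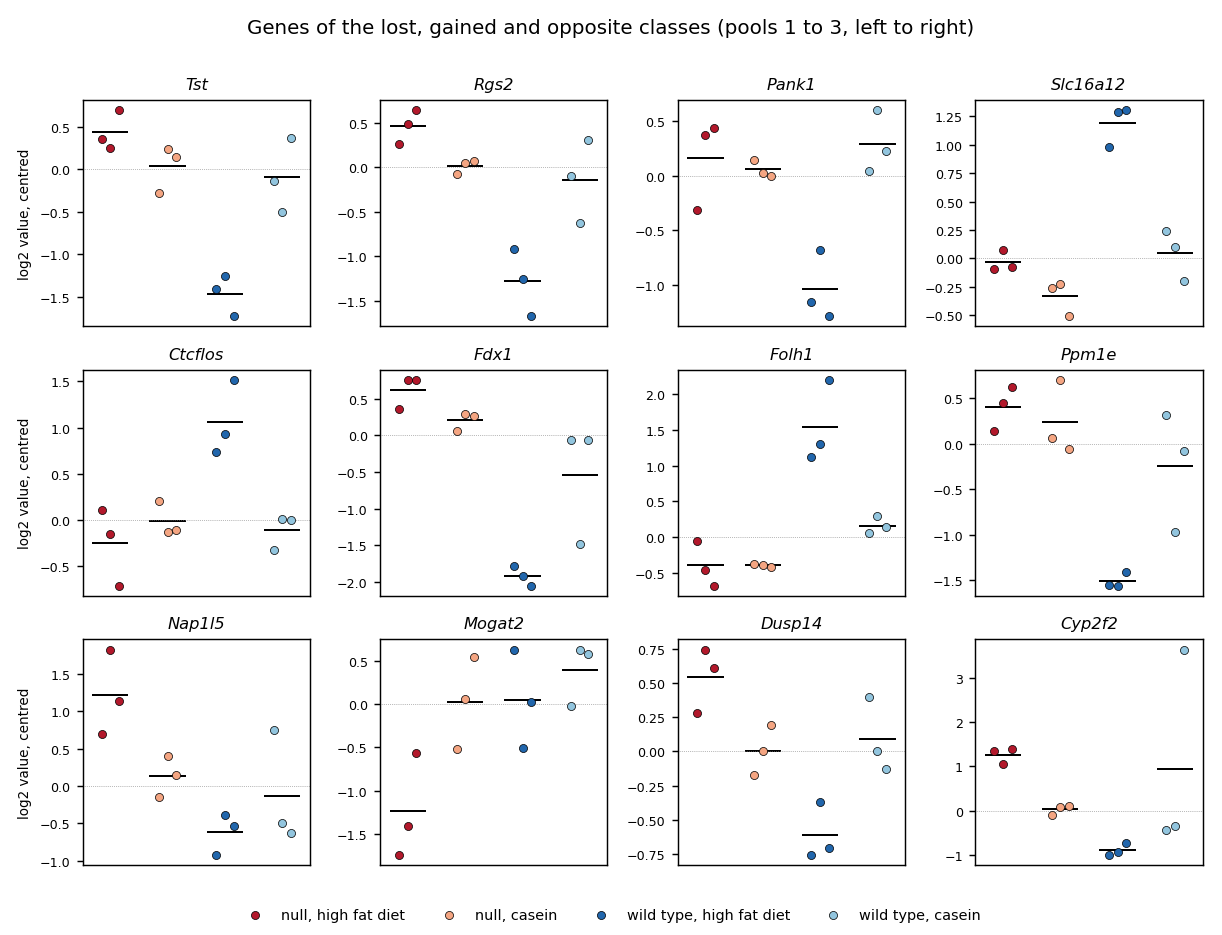
Centred log2 values of 12 genes in null high fat diet, null casein, wild type high fat diet and wild type casein pools, in that order from left to right, with pools 1 to 3 side by side and a bar at each mean. In the panels of Tst, Rgs2, Pank1, Fdx1 and Ppm1e the wild type HFD pools are the 3 lowest of 12, and in those of Slc16a12, Ctcflos and Folh1 they are the 3 highest.

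The other genes of the lost class are described by role, and all but Mest, a followed gene, and Ccl11, among the smallest p of its list, were chosen after their values were seen. Of the 41 genes, 8 belong to the fat pad gene lists described further on, 2 to lists of other tissues and 31 to none, so the genes named here stand for themselves and not for a group. Mest, an imprinted gene known to follow fat mass expansion, was at -0.80, -0.77 and -1.33 in null HFD pools and -0.04, -1.33 and -1.47 in null casein pools, against 1.31, 1.17 and 2.90 in wild type HFD pools and 0.04, 0.22 and 0.43 in wild type casein pools. The null diets overlapped, and the interaction of Mest was -1.58 ± 0.66 (95% interval -3.04 to -0.13), or -1.03 without wild type HFD pool 3. Ccl11, the eosinophil chemokine eotaxin, had an interaction of -1.11 ± 0.50. Rnase2a, an eosinophil-type ribonuclease, had -1.46 ± 0.53, the lowest of the eosinophil and mast cell list. In that list 9 of 16 genes had a positive interaction, and the median was 0.05. Mmp3, the matrix protease stromelysin, had -2.05 ± 0.61, and Pcolce2, which enhances procollagen processing, -1.35 ± 0.62. Irs2, an adaptor of the insulin receptor, was at 0.60, -0.19 and -0.55 in null HFD pools and 0.54, 0.04 and -0.45 in null casein pools, against 0.24, 0.70 and 1.02 in wild type HFD pools and -0.35, -0.04 and -0.78 in wild type casein pools. In null pools the value of Irs2 spread widely within each diet and the diets overlapped, and its interaction was -1.13 ± 0.48.

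A single wild type pool carried much of the change for some genes. Ubd, a ubiquitin-like protein induced by inflammatory cytokines, was at -0.13, -0.22 and -0.41 in null HFD pools and 0.34, -0.12 and 0.12 in null casein pools, against 0.33, 1.96 and 4.24 in wild type HFD pools and -0.54, -0.79 and 0.17 in wild type casein pools. The null diets of Ubd were separated the other way, by the narrow gap between -0.128 and -0.121. Tph2, the serotonin-making tryptophan hydroxylase of neurons, was at -0.25, -0.02 and -0.11 in null HFD pools and -0.23, -0.17 and 0.04 in null casein pools. In wild type pools Tph2 was at 0.50, 1.74 and 4.80 on the high fat diet and at 0.02, -0.07 and 0.08 on casein. For both genes pool 3 of the wild type high fat diet was the highest of the 12. The interactions were -2.93 ± 1.03 for Ubd and -2.34 ± 1.12 for Tph2.

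Among the 25 genes of the class that were lower on the high fat diet in wild type pools was Mgarp, a mitochondrial protein of steroid-making cells. It was at 0.19, 0.85 and 0.99 in null HFD pools and 1.14, 0.06 and -0.19 in null casein pools, against -4.79, -5.65 and -5.55 in wild type HFD pools and -0.06, -4.76 and 0.52 in wild type casein pools. Only the narrow gap between -4.79 and -4.76 separated its wild type diets, so that casein pool 2 looked like the HFD pools. Its interaction was 4.23 ± 1.54. Prss35, a protease-like protein of the ovary, had 2.44 ± 1.1 and showed the same low casein pool, at -3.50, against -0.01 and -1.31 in the other wild type casein pools. Cdh2, the cell adhesion protein N-cadherin, had an interaction of 1.62 ± 0.48. Epithelial genes such as Wfdc2, with an interaction of 2.90 ± 1.75, and St14, a membrane serine protease, with 1.15 ± 1.01, were highest among wild type pools in casein pool 1, at 2.79 and 2.40. Of the 41 genes 14 remained in the class with the tissue medians as covariates, 24 remained without the 3 pools that stood apart in other tissue markers, 28 remained with array weights, and 19 remained after quantile normalization, where the class held 37 genes.

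The gained class held Nap1l5 and Mogat2. Nap1l5, an imprinted gene of the nucleosome assembly protein family, was at 0.70, 1.83 and 1.14 in null HFD pools and -0.15, 0.41 and 0.15 in null casein pools, against -0.93, -0.39 and -0.54 in wild type HFD pools and 0.75, -0.50 and -0.63 in wild type casein pools. The null HFD pools lay above all other null pools, and the wild type diets overlapped. The interaction of Nap1l5 was 1.58 ± 0.52 (95% interval 0.42 to 2.74), and 0.72 with the tissue medians as covariates. Mogat2, a monoacylglycerol acyltransferase of triglyceride synthesis, was at -1.75, -1.40 and -0.57 in null HFD pools and -0.51, 0.06 and 0.55 in null casein pools, against 0.63, -0.50 and 0.02 in wild type HFD pools and -0.02, 0.64 and 0.58 in wild type casein pools. The null diets were separated by the gap between -0.57 and -0.51, and the interaction of -0.93 ± 0.54 had a 95% interval of -2.11 to 0.26. The gained count was 26 without null HFD pool 1, 15, 13 and 8 without null casein pools 3, 2 and 1, 7 without null HFD pool 2 and 6 without wild type casein pool 1. It was 1 without any of the wild type HFD pools or without wild type casein pool 2.

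The opposite class held Dusp14 and Cyp2f2. Dusp14, a phosphatase of MAP kinases, was at 0.28, 0.75 and 0.61 in null HFD pools and -0.17, 0 and 0.19 in null casein pools, against -0.76, -0.37 and -0.71 in wild type HFD pools and 0.40, 0 and -0.13 in wild type casein pools. The diet change was thus 0.54 in null pools and -0.70 in wild type pools, with an interaction of 1.24 ± 0.24 (95% interval 0.71 to 1.78; 0.97 to 1.61 over the alternatives). Cyp2f2, a cytochrome P450 of mouse airway and liver, was at 1.36, 1.05 and 1.40 in null HFD pools and -0.09, 0.09 and 0.10 in null casein pools, against -1.0, -0.94 and -0.72 in wild type HFD pools and -0.43, -0.35 and 3.64 in wild type casein pools. Its wild type casein pool 3 was the pool with the high liver median. The wild type diet change of -1.84 rested largely on that pool, since the other wild type casein pools stood near the HFD pools. With all pools the interaction of Cyp2f2 was 3.07 ± 1.18, and without that pool it was 1.73 and passed (adjusted p = 0.0276), as did the null diet change of 1.23 (adjusted p = 0.015). The opposite count was 34 without null HFD pool 1, 11 and 6 without null casein pools 3 and 2, 14 without wild type casein pool 2 and 5 without wild type HFD pool 1.

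The 5 genes with the smallest interaction p in each direction include genes with small changes. On the positive side these were Tst, Dusp14 and Rgs2, with Scrn1, a secernin, at 0.47 ± 0.10 and Gjb6, the gap junction protein connexin 30, at 0.40 ± 0.08. On the negative side, beside Slc16a12, Sycp3, a synaptonemal complex protein of meiosis, had -0.87 ± 0.16, Lpgat1, a lysophospholipid acyltransferase, -0.79 ± 0.17, Gbp2, an interferon-induced guanylate-binding protein, -0.57 ± 0.13, and Il4i1, an amino acid oxidase of immune cells, -0.49 ± 0.09. Gbp2 was at -0.08, -0.09 and -0.02 in null HFD pools and 0.26, 0.07 and 0.05 in null casein pools, against 0.17, 0.10 and 0.35 in wild type HFD pools and -0.09, -0.13 and -0.30 in wild type casein pools. Its diets were separated in both genotypes, in opposite orders, but within a span of less than 1. These genes were chosen for their small p, and their groups rarely overlap for that reason.

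Promoter sequence of 250 bases before the start site was available from RefSeq (GRCm38.p6) for 23 of 27 genes looked up, namely the genes named by rule for the classes (8 of the 41 lost genes), those of the smallest p and those of the interaction calls under alternatives. The windows were searched on both strands for 4 exact motifs. The core of the interferon-stimulated response element, a pair of GAAA runs with any 2 bases between them, was found in 1 of the 23 genes, Gbp2, and is present in 2.98% of 32851 windows of this length. The interferon-gamma activated site, TTCNNNGAA, was found in 4 genes, namely Dusp14, Hsd3b1, Hgfac and Urah, and is present in 7.02% of windows. The steroidogenic factor 1 element CAAGGTCA (1.33% of windows) and the cyclic AMP response element TGACGTCA (1.55%) were found in 0 of the 23. The matched windows of Hgfac and Urah are not shown. Those of Gbp2, Dusp14 and Hsd3b1 are shown, with the match in capitals and no overlap between motifs. Counted from the start site, the match starts at position -59 in Gbp2, where it is the motif read on the other strand, at -200 in Dusp14 and at -122 in Hsd3b1. They lie at chr3:142620413-142620662 (+ strand), chr11:84068358-84068607 (- strand) and chr3:98859795-98860044 (- strand). A match is a description of the letters and says nothing of binding.
Gbp2: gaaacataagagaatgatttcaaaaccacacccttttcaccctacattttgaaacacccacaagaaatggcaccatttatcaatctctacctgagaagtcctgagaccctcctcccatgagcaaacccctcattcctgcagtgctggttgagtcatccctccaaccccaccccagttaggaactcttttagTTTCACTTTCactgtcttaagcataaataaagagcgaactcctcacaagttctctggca
Dusp14: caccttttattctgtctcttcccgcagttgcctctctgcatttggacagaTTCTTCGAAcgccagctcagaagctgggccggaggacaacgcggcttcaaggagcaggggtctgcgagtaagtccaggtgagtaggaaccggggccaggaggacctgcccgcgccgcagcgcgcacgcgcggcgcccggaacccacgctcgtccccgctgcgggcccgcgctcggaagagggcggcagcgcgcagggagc
Hsd3b1: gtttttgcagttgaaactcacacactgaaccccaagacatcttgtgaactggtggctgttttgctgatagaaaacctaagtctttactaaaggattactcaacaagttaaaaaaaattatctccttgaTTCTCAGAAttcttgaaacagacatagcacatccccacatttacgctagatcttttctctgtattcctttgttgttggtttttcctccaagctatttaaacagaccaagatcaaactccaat

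Lists of genes by cell type or pathway were described next, by how many measured members had positive or negative interactions and by their medians, beside 49% positive and 51% negative over all genes and a median of -0.004. No member of the 36 lists passed (0 calls, limma). The lists were chosen with earlier results of these data known, so their counts beside the share of all genes are descriptions and not a test. The lists of fat expansion and vessels had the most negative medians. Of 16 adipose expansion genes, 15 had a negative interaction and 7 a negative one at an unadjusted p under 0.05, against 3.41% of all genes. The median interaction was -0.73, from a median diet change of -0.13 in null and 0.48 in wild type pools. It was -0.46 without null casein pool 1 and -0.45 with the tissue medians as covariates. Beside Mest and Tph2, this list held Npr3, the clearance receptor of natriuretic peptides, at -1.20 ± 0.51 (-0.74 without null casein pool 1), Fgf13, an intracellular fibroblast growth factor homolog, at -0.87 ± 0.33, and Lep, leptin, at -0.76 ± 0.40 (95% interval -1.65 to 0.13). Lep was at -0.49, -0.71 and -0.79 in null HFD pools and -0.13, -0.74 and -0.71 in null casein pools, against 0.71, 0.51 and 1.71 in wild type HFD pools and 0.13, 0.60 and 0.32 in wild type casein pools. The diets overlapped in both genotypes, and without wild type HFD pool 3 the interaction of Lep was -0.39.

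Of 24 endothelial markers all 24 had a negative interaction, from -0.83 to -0.22, and 9 did so at an unadjusted p under 0.05. The median interaction was -0.47, from a median diet change of -0.12 in null and 0.34 in wild type pools, and all 24 were higher on the high fat diet in wild type pools. Over the alternatives that median ran from -0.59 to -0.23, its least negative value being that with the tissue medians as covariates. The members with the smallest p were Rgcc, a regulator of the cell cycle and of vessel growth, at -0.67 ± 0.23, Icam2, an adhesion molecule, at -0.55 ± 0.19, Erg, an endothelial transcription factor, at -0.82 ± 0.29, and Eng, the TGF-beta coreceptor endoglin, at -0.35 ± 0.12. The list median in the pools was 0.002, -0.11 and -0.29 in null HFD pools and 0.07, 0.004 and -0.16 in null casein pools, against 0.23, 0.25 and 0.49 in wild type HFD pools and -0.13, 0.18 and -0.11 in wild type casein pools. The wild type HFD pools were the 3 highest of the 12. In such bulk tissue, fewer cells of a type and less RNA per cell cannot be told apart.

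Of 19 mature adipocyte markers 16 had a negative interaction, with a median of -0.33 from a diet change of -0.23 in null and 0.08 in wild type pools (median -0.13 with the tissue medians as covariates). At an unadjusted p under 0.05 there were 4 of them, Aqp7, the glycerol channel, at -1.17 ± 0.38, Tmem182 at -0.60 ± 0.19, Cd36, the fatty acid transporter, at -0.88 ± 0.35, and Pparg, the adipocyte transcription factor, at -0.52 ± 0.22. With the covariates Pparg stood at -0.13. Adipoq, adiponectin, was at 0.15, -0.03 and -0.61 in null HFD pools and 0.27, -0.06 and -0.21 in null casein pools, against 0.02, 0.03 and 0.08 in wild type HFD pools and -0.02, 0.09 and -0.20 in wild type casein pools. All 4 groups overlapped in Adipoq, with an interaction of -0.25 ± 0.26 (95% interval -0.81 to 0.32).

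Lists of immune cells and matrix had smaller negative medians. Of 33 macrophage markers 28 were negative, with a median interaction of -0.27, from 0.005 in null and 0.26 in wild type pools, -0.13 without wild type HFD pool 3 and -0.14 with the tissue medians as covariates. Adgre1, which encodes F4/80, had -0.63 ± 0.25, and C1qb, a complement C1q chain made by macrophages, had -0.62 ± 0.20. Of 15 lipid-associated macrophage genes 14 were negative (median -0.30), among them Lgals3, galectin 3, at -0.65 ± 0.35. Without wild type HFD pool 3 the median of that list was -0.20. Chemokines and cytokines had a median of -0.21, and -0.13 without wild type casein pool 1 (24 of 33 negative, 6 at an unadjusted p under 0.05). Negative members were the acute phase protein Orm1 at -0.71 ± 0.19, the monocyte chemokine Ccl2 at -0.82 ± 0.43 and Cxcl9, induced by interferon gamma, at -0.66 ± 0.27. The other 9 were positive, and the largest interaction of the list in size was positive, that of Lcn2 at 4.78 ± 2.28, described further on. Ccl2 was at -0.05, -0.005 and -0.15 in null HFD pools and 0.48, -0.03 and -0.30 in null casein pools, against 0.28, 0.18 and 1.44 in wild type HFD pools and 0.005, 0.14 and -0.33 in wild type casein pools. Without wild type HFD pool 3 the interaction of Ccl2 was -0.42 and that of Adgre1 -0.43. Of 32 collagen and matrix genes 23 were negative (median -0.25, and -0.15 without wild type casein pool 3), with the basement membrane chains Col4a1 at -0.49 ± 0.22 and Col4a2 at -0.53 ± 0.23. Of 15 complement components 11 were negative (median -0.20, and -0.06 without null casein pool 1, -0.08 with the covariates and -0.10 after quantile normalization). The 2 members past an unadjusted p of 0.05 were both negative, namely C1qb and C6, the latter at -1.03 ± 0.42. The 4 positive ones included Cfi at 2.03 ± 1.20, the largest of the list in size (0.07 with the covariates), and Masp1 at 0.70 ± 0.38.

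**Figure D3:**
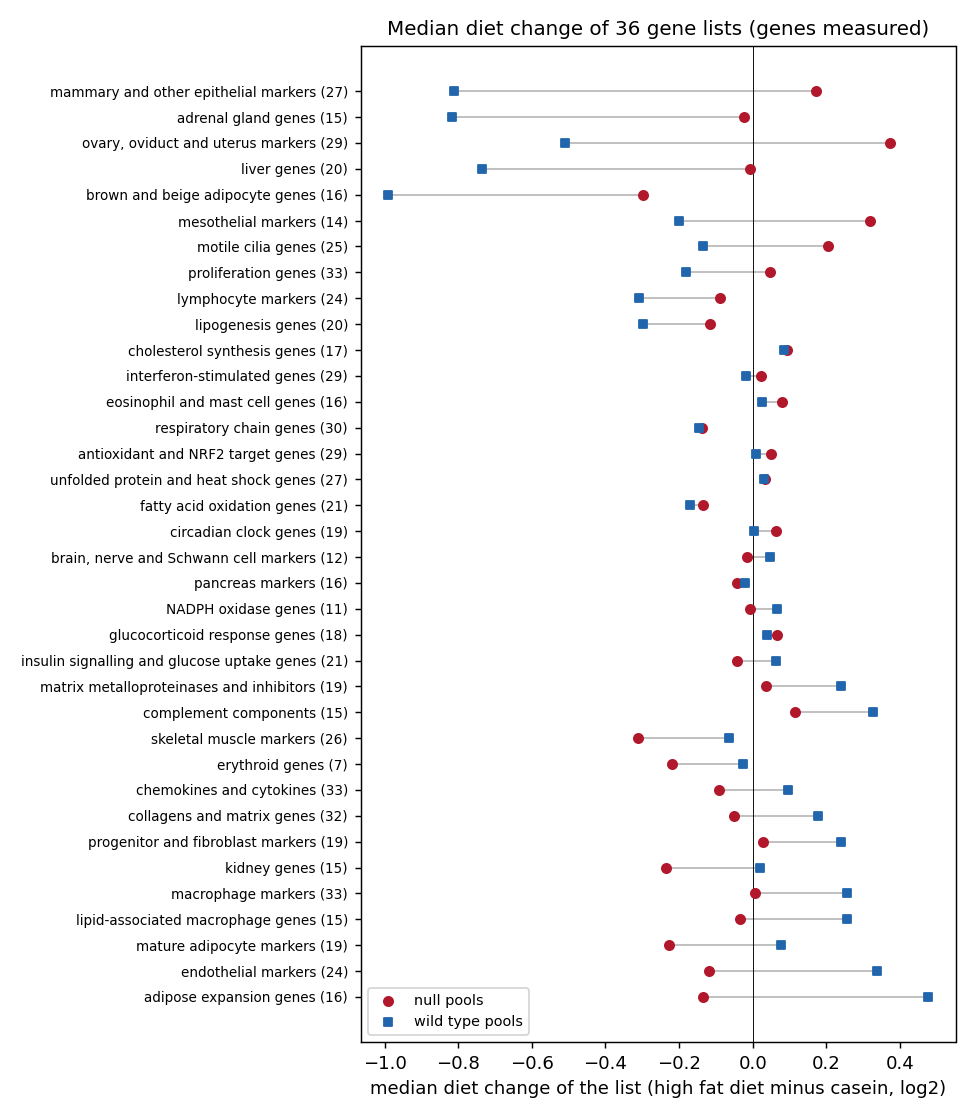
Median diet change (high fat diet minus casein, log2) of 36 gene lists in null pools (circles) and wild type pools (squares), with the number of genes measured in brackets, ordered by the median interaction. The adipose expansion list, at the bottom, stands at -0.13 in null and 0.48 in wild type pools, and the mammary and other epithelial markers, at the top, at 0.17 in null and -0.81 in wild type pools.

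Of 16 brown and beige adipocyte genes 11 had a positive and 5 a negative interaction. The median was 0.59, from -0.30 in null and -0.99 in wild type pools, 0.14 without null casein pool 1 and 1.15 with the tissue medians as covariates. The only member past an unadjusted p of 0.05 was negative, namely Fgf21, a fasting and thermogenic hormone, at -0.59 ± 0.24. The transcription factors Ebf2 at -0.33 ± 0.25, Zic1 at -0.32 ± 0.19 and Prdm16 at -0.29 ± 0.24 were also negative. Ucp1, the uncoupling protein of heat production, was at -2.53, -1.05 and -1.60 in null HFD pools and -4.89, 1.41 and 0.86 in null casein pools, against -0.86, 1.95 and -2.05 in wild type HFD pools and 1.77, 3.72 and 2.95 in wild type casein pools. The spread within a group reached several units, so the interaction of Ucp1 was 2.28 ± 2.13 (95% interval -2.45 to 7.0; 0.27 without null casein pool 1 and 0.50 after quantile normalization). Elovl3, an elongase of brown fat, had 1.83 ± 1.02. Lipogenesis genes had a median of 0.15 (15 of 20 positive), -0.07 without wild type HFD pool 3, 0.37 with the covariates and 0.02 after quantile normalization. Fasn, fatty acid synthase, had 0.13 ± 0.31, and Scd1, stearoyl-CoA desaturase, -0.22 ± 0.16. Fasn turned negative without null casein pool 1 and without wild type HFD pool 3. Only Elovl5, a fatty acid elongase, was past an unadjusted p of 0.05 in that list, at 0.71 ± 0.26.

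The list of NADPH oxidase genes had a median interaction of -0.07 (7 of 11 negative), -0.33 without wild type casein pool 3 and -0.0005 without wild type casein pool 1. Ncf1 had -0.12 ± 0.23 (95% interval -0.63 to 0.39), Cybb -0.27 ± 0.26 and Nox4, the constitutively active oxidase, -0.49 ± 0.31. Duoxa1, a maturation factor of the dual oxidases, had -0.62 ± 0.24, from a diet change of 0.05 in null and 0.67 in wild type pools. The sign of Ncf1 turned without wild type casein pool 1. Of 29 antioxidant and NRF2 target genes 16 were positive and 13 negative (median 0.04, with the other sign under 8 alternatives), with catalase, Cat, at -0.57 ± 0.20, the quinone reductase Nqo1 at -0.38 ± 0.17 and the regulator Nfe2l2 at 0.34 ± 0.14. Of 29 interferon-stimulated genes 16 were positive (55.2%, against 49% of all genes) and 13 negative, Gbp2 among the latter. Their median was 0.08, and -0.06 without null HFD pool 3, with the other sign under 4 alternatives.

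**Figure D4:**
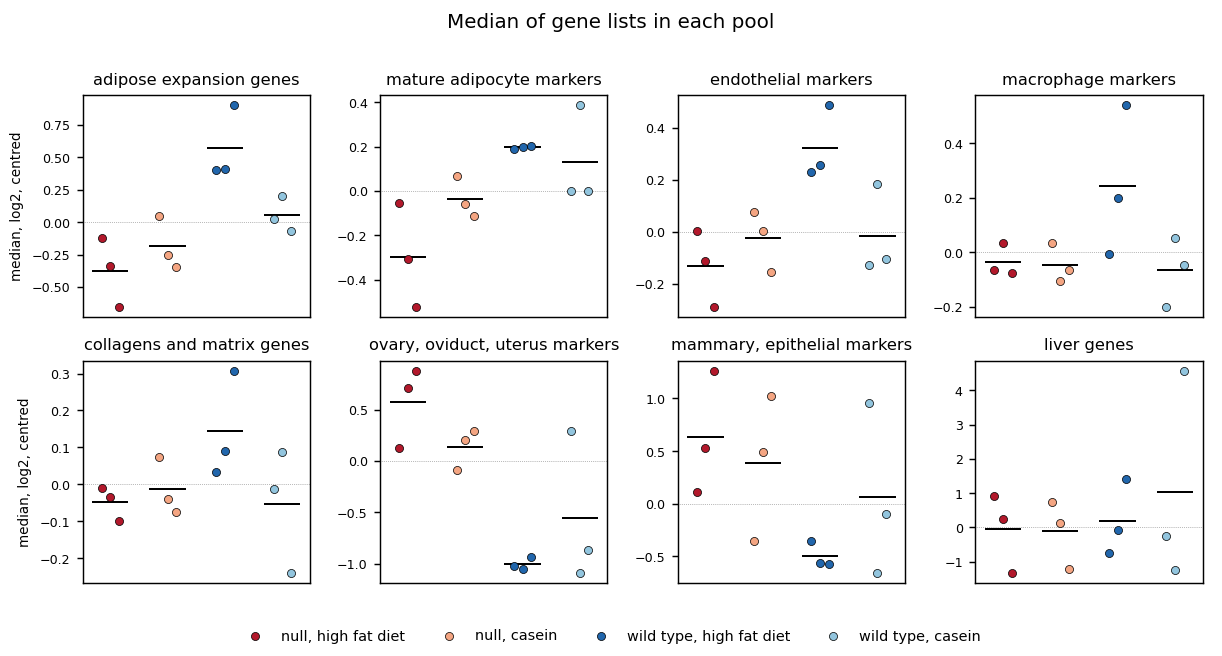
Median of 8 gene lists in each pool (centred log2), in null high fat diet, null casein, wild type high fat diet and wild type casein pools from left to right, with pools 1 to 3 side by side and a bar at each mean. In the panel of the ovary, oviduct and uterus markers the wild type HFD pools lie between -1.05 and -0.94 with wild type casein pools 2 and 3 beside them, while the null HFD pools lie between 0.13 and 0.88.

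The 4 lists with the most positive medians were markers of other organs. Of 29 ovary, oviduct and uterus markers 27 were positive, with a median interaction of 0.79, from 0.37 in null and -0.51 in wild type pools, and 3 were past an unadjusted p of 0.05 (2.7% of all genes were, in this direction). Their median in the pools was 0.13, 0.71 and 0.88 in null HFD pools and -0.09, 0.21 and 0.29 in null casein pools, against -1.03, -1.05 and -0.94 in wild type HFD pools and 0.29, -1.09 and -0.87 in wild type casein pools. Wild type casein pools 2 and 3 thus resembled the wild type HFD pools, and pool 1 resembled the null pools. The median interaction was 0.33 without wild type casein pool 1, 1.22 without null HFD pool 1 and -0.02 with the tissue medians as covariates, of which this list is one. Of 25 motile cilia genes, which the oviduct expresses, 22 were positive (median 0.31, and 0.09 with the covariates; 6 past an unadjusted p of 0.05), with the radial spoke proteins Rsph9 at 0.93 ± 0.23 and Rsph4a at 1.11 ± 0.36, and Ak7, an adenylate kinase of cilia, at 1.73 ± 0.63. Proliferation genes were positive for 28 of 33 (median 0.26, 0.07 without wild type casein pool 1 and -0.13 with the covariates). Mammary and other epithelial markers had a median of 1.04, 0.18 without wild type casein pool 1 and -0.13 with the covariates. In that list Lcn2, the iron-binding lipocalin of epithelia and neutrophils, was at 3.67, 3.05 and 3.22 in null HFD pools and -0.66, 0.66 and 2.58 in null casein pools, against -0.75, -1.19 and -0.92 in wild type HFD pools and 6.22, -1.11 and -0.99 in wild type casein pools. The null diets did not overlap in Lcn2, and a single wild type casein pool lay above all others. The interaction of Lcn2 was 4.78 ± 2.28 (95% interval -0.27 to 9.83). Liver genes had a median of 0.79, -0.87 without wild type casein pool 3 and -1.47 without the 3 pools. With the covariates it was -0.14, but the liver median is itself one of them, so that value is no independent check.

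The remaining lists had medians nearer to 0 or rested on single pools. Progenitor and fibroblast markers had a median interaction of -0.26 (16 of 19 negative), -0.14 without wild type casein pool 3 and -0.09 without the 3 pools. Kidney genes had -0.26 (12 of 15 negative), and -0.002 without null casein pool 3, whose kidney median was 0.66. Matrix metalloproteinases and their inhibitors had -0.14 (12 of 19 negative), -0.06 without null casein pool 1 and -0.01 without the 3 pools. Erythroid genes had -0.21 (7 of 7 negative). Mesothelial markers had 0.53 (13 of 14 positive), 0.09 without wild type HFD pool 3 and 0.24 with the covariates. Adrenal gland genes had 0.79 (13 of 15 positive), 0.03 without wild type casein pool 3 and -0.005 without the 3 pools. Lymphocyte markers had 0.24 (19 of 24 positive), and -0.18 without wild type casein pool 3. Skeletal muscle markers had -0.20, and between -1.72 and 1.69 when 1 pool was left out, so their sign turned with the pool left out. The medians of insulin signalling, cholesterol synthesis, glucocorticoid response, eosinophil and mast cell, pancreas, respiratory chain, nerve, circadian clock, unfolded protein and fatty acid oxidation genes lay between -0.11 and 0.11, and each had the other sign under at least 1 alternative. The largest such shift was to 0.44 with the covariates, for fatty acid oxidation genes.

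The 10 genes that passed the interaction test once wild type casein pool 2 was left out were Hsd3b1, Cyp11a1, Fdx1, Akr1cl, Mgarp, Hao2, Nrn1, Arg1, Hgfac and Urah, with adjusted p from 0.00639 to 0.0438. They are named because of that call, after their values were seen. Hsd3b1, which converts pregnenolone to progesterone in steroid-making cells, was at 0.16, 0.65 and 0.78 in null HFD pools and 0.35, 0.05 and -0.05 in null casein pools, against -6.16, -8.86 and -8.16 in wild type HFD pools and -0.18, -8.11 and 1.14 in wild type casein pools. Casein pool 2 was as low as the HFD pools. With all pools the interaction of Hsd3b1 was 5.75 ± 2.63 (adjusted p = 0.789), without casein pool 2 it was 8.62 (adjusted p = 0.0133), with the tissue medians as covariates 1.15 and after quantile normalization 3.76. Cyp11a1, the first enzyme of steroid synthesis, was at -0.07, 0.43 and 0.60 in null HFD pools and 0.32, 0.13 and 0.35 in null casein pools, against -2.10, -2.26 and -2.37 in wild type HFD pools and -0.05, -2.21 and 0.11 in wild type casein pools. Its interaction was 1.58 ± 0.69, 2.32 without casein pool 2 and 0.24 with the covariates, and its probe sets disagreed, since their median gave 0.07 and the one with the widest interquartile range 4.71. Akr1cl, an aldo-keto reductase, and Hao2, a hydroxyacid oxidase, had the same low casein pool 2, with interactions of 3.69 ± 1.74 and 3.57 ± 1.57. Arg1, the arginase of the urea cycle in liver, differed from these. It was between -0.78 and 1.06 in the null pools of both diets, against -0.75, -0.11 and 0.49 in wild type HFD pools and 5.14, -0.98 and 4.53 in wild type casein pools. Hgfac, a liver activator of hepatocyte growth factor, and Urah, a liver enzyme of urate breakdown, were likewise higher in wild type casein pools 1 and 3.

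**Figure D5:**
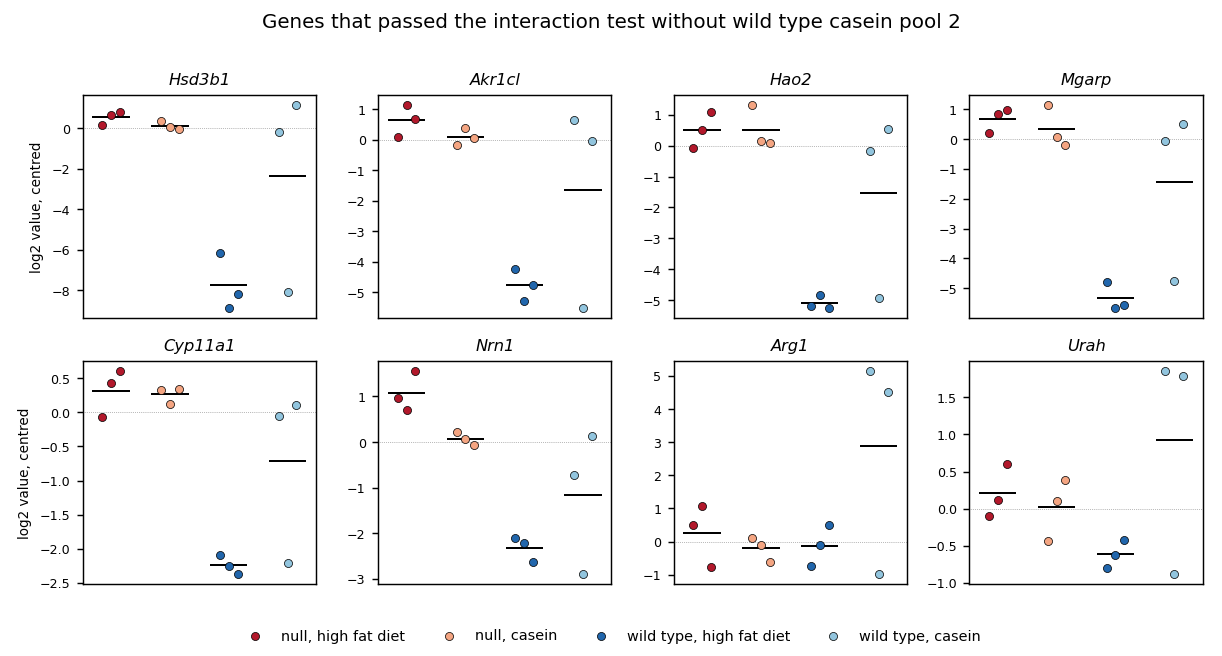
Centred log2 values of 8 of the 10 genes that passed the interaction test without wild type casein pool 2, in null high fat diet, null casein, wild type high fat diet and wild type casein pools from left to right, with pools 1 to 3 side by side and a bar at each mean. Wild type casein pool 2, the middle point of the last group, lies beside the wild type HFD pools for Hsd3b1, Akr1cl, Hao2, Mgarp, Cyp11a1, Nrn1 and Urah.

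Some diet changes had the same direction in both genotypes, of like or of differing size. Hsd11b1, which regenerates active glucocorticoid, was at -1.40, -0.79 and -0.88 in null HFD pools and 0.69, 1.04 and 1.48 in null casein pools, against -0.49, -1.14 and -1.37 in wild type HFD pools and 0.49, 0.67 and 0.92 in wild type casein pools. Its diets were separated in both genotypes and in the same order, with changes of -2.09 in null and -1.69 in wild type pools. The interaction of Hsd11b1 was -0.41 ± 0.37 (95% interval -1.23 to 0.42). Slc15a5, of the peptide transporter family, had an interaction of 0.13 ± 0.40, from -1.23 in null and -1.36 in wild type pools. A pair of genes had a smaller change in null pools. Pla2g2e, a secreted phospholipase, was higher on the high fat diet in both genotypes, at 0.71 in null and 1.73 in wild type pools, with an interaction of -1.02 ± 0.39. Pmepa1, an inhibitor of TGF-beta signalling, had changes of 0.65 in null and 1.70 in wild type pools and an interaction of -1.05 ± 0.41. These genes were named after their values were seen.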

How the data were processed

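Total RNA (8 µg) of abdominal fat pads was labelled with biotin and hybridised to 12 Affymetrix arrays, per the labels' protocols. GCOS and RMA were used, per the submitters' processing notes, with no version or order given. The authors deposited log2 expression values, negative and positive. The base is not stated and was taken as 2. In the deposited file the median of each of the 45101 probe sets over the arrays is 0 (0 depart by more than 1e-06), so the authors' values are centred per probe set and levels and signal over background are lost.

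The platform annotation gives 1 gene for 34958 probe sets, several for 932 and none for 9211, and only the first kind was used. Symbols were updated through RefSeq for 34754 of them. A gene was the mean of its probe sets. One limma 3.58.1 fit (R 4.3.3; lmFit, contrasts.fit, eBayes) of the 4 group means to the 12 arrays gave the interaction and both diet changes, with 8 residual degrees of freedom and two-sided p-values adjusted over 18195 genes (Benjamini-Hochberg, threshold 0.05). The fit was tested on simulated data. Errors after ± are standard errors. Replicates are pools with an unstated number of animals, so p-values measure the spread between pools, and the number of arrays limits the precision. No pair of arrays was identical.

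The genes and the 36 lists were chosen with earlier results of these data known. Named genes were the 8 with the smallest interaction p in each class, the 5 with the smallest in each direction, up to 4 in each list described, and 13 followed genes, leaving out predicted and clone names. The pattern for clone names also matched complement genes such as C6, whose symbol is a letter and digits, and left them out of this naming. Other genes are said to be chosen after their values. Alternatives changed the probe set rule, normalization, weights, moderation, covariates, class limits, pool number block and pools left out. Pool numbers showed no common pairing over the 4 groups, since 3 of 18 same-numbered pairs correlated above 0.1. Null HFD and null casein pools, however, correlated at 0.55 for number 1 and 0.59 for number 3, but at -0.01 for number 2. Wild type HFD and casein pools correlated at 0.30 for number 3. Pairing within a genotype was not tested.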

Additional observations from a re-analysis of the deposited data

Results flagged for a closer look

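For 12 of the genes named by rule the pools of the diets were separated in both genotypes in opposite directions. Each difference between the genotypes was tested as the interaction, and none passed (limma adjusted p = 0.789 for each of the 12). Selection of genes by a small interaction p favours such patterns, and 96 genes of the whole table showed it. Ubd, described above after its values were seen, was also among the 96. The diet change in null minus that in wild type pools was 1.78 for Tst, 1.60 for Rgs2, 1.80 for Fdx1, 1.24 for Dusp14, 3.07 for Cyp2f2, 0.47 for Scrn1 and 0.398 for Gjb6. It was -0.874 for Sycp3, -0.488 for Il4i1, -0.787 for Lpgat1, -0.572 for Gbp2 and -0.67 for Rgcc. Sycp3 was at -0.42, -0.33 and -0.11 in null HFD pools and 0.14, 0.20 and 0.33 in null casein pools, against 0.11, 0.10 and 0.19 in wild type HFD pools and -0.10, -0.48 and -0.12 in wild type casein pools. Lpgat1 was at -0.46, -0.46 and -0.44 in null HFD pools and -0.03, -0.31 and -0.34 in null casein pools, against 0.65, 0.46 and 0.92 in wild type HFD pools and 0.06, 0.21 and 0.09 in wild type casein pools. Among these 12 genes, Fdx1 passed without wild type casein pool 2 and Cyp2f2 without wild type casein pool 3.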

How the results depend on the processing

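The interaction count of 0 held in every alternative except 2 left-out pools, with a range of 0 to 10 when 1 pool was left out. The count for the null diet change was 942 with array weights and 0 to 1 with 1 pool left out. The count for the wild type diet change was 1 without the 3 pools that stand apart, and 0 to 15 with 1 pool left out. The lost count of 41 was 62 with the probe set of widest interquartile range, 77 with every probe set alone, 17 with covariates, 63 without the 3 pools, 9 at limits of 1.5 and 0.5, and 31 to 163 with 1 pool left out. The gained count of 2 was 7, 9, 4 and 9 in the first 4 of those settings, 6 after quantile normalization, 5 with array weights, 10 at limits of 0.8 and 0.4, 0 at 1.5 and 0.5, and 1 to 26 with 1 pool left out. The opposite count of 2 was 6 with the widest probe set, 8 with every probe set, 64 without the 3 pools, 0 after quantile normalization, 5 at limits of 0.8 and 0.4, 1 at a limit of 0.75 for this class, and 2 to 34 with 1 pool left out. The pool number as 1 block common to all groups gave 0 interaction calls in limma (smallest adjusted p 0.799, 1097 genes at an unadjusted p under 0.05) and changed no call. Such a block does not test pairing within 1 genotype. Of 12 pools, 4 correlated best with their own number. Of 1753 pairs of a named gene and a setting, 1742 kept direction and side of the threshold, 5 passed and 6 reversed. The reversals were Ncf1 at 0.074 with the widest probe set and 0.0622 without wild type casein pool 1 (-0.327 to 0.0622 over left-out pools), Duox1 at 0.123 and Krt18 at -0.133 with covariates, and the Fasn interaction at -0.0732 without null casein pool 1 and -0.128 without wild type HFD pool 3 (-0.128 to 0.309 over left-out pools). Of 792 pairs of a list and a setting, 74 moved. The cause of these shifts was not tested, apart from the fewer pools or other limits that define a setting. The fit with covariates leaves 5 residual degrees of freedom, and signal over background cannot be read from centred values.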

Other observations

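Without the annotation, each of the 45101 probe sets was also tested for the interaction on its own. Of these 0 passed in limma (smallest adjusted p = 0.845), and 2533 had an unadjusted p under 0.05.

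Prap1, a secreted protein of epithelia, had the largest null diet change among genes whose null pools were separated. It was at 3.38, 4.77 and 3.0 in null HFD pools and -0.50, 2.07 and 0.27 in null casein pools, against -0.37, -0.58 and -0.47 in wild type HFD pools and 3.23, -0.87 and -0.56 in wild type casein pools. Its interaction was 4.17 ± 1.41 (limma adjusted p = 0.789). Ltf, lactoferrin of epithelia and neutrophils, was at 2.95, 2.98 and 3.30 in null HFD pools and -2.44, 2.19 and 2.53 in null casein pools, against -2.19, -2.90 and -2.32 in wild type HFD pools and 3.45, -2.47 and -3.05 in wild type casein pools, with an interaction of 4.10 ± 2.30. In both genes wild type casein pool 1 stood with the null HFD pools. C6, a complement component of the lost class, had an interaction of -1.03 ± 0.42, from 0.12 in null and 1.15 in wild type pools. These 3 genes were chosen after their values were seen.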
